A study of Mus musculus with 12 samples.

Results

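Transforming growth factor-beta (TGF-beta) signalling and the genes of myofibroblasts were followed in mouse kidneys after ischemia/reperfusion (I/R) injury, with and without the proximal tubular deletion of augmenter of liver regeneration (ALR, gene Gfer). The 10 genes described are the ligand genes Tgfb1, Tgfb2 and Inhba, the receptor genes Tgfbr1 and Tgfbr2, the inhibitory SMAD gene Smad7, and the mesenchymal genes Acta2, Vim, Fn1 and Pdgfrb. They were chosen by name as rows of a table of 55487 genes, and all 10 were found in it. Each of 12 kidney cortex libraries came from 1 mouse, with 3 libraries per group. Ctrl mice carried floxed ALR alleles (ALR flox/flox) without Cre and had a sham operation. PT-KO mice carried the same alleles with Ggt1-Cre, which is active in proximal tubular cells, so that other kidney cells kept the gene, and they too had a sham operation. Ctrl+I/R and PT-KO+I/R mice were the same genotypes after 22 min of bilateral renal ischemia and 24 h of reperfusion. All groups were young mice on a mixed C57BL/6 background. The labels call the control genotype WT and the knockout ALR knockdown.

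TGF-beta is secreted in a latent form that is held in the matrix and released by integrins or proteases. The active ligand brings together type II and type I receptors, whose kinase activity phosphorylates SMAD2 and SMAD3, and these enter the nucleus with SMAD4 to switch on target genes, among them the gene of the inhibitor SMAD7. Activins, which are built from the product of Inhba, use other receptors and the same SMADs. In the injured kidney this pathway is known for turning pericytes and fibroblasts into contractile, matrix-depositing myofibroblasts.

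Library totals ran from 12165089 to 23123693 counts, and every member had between 5 and 3390 counts in every library. Gfer itself was not lower in the knockout by the test. Its log2 fold change was 0.13 ± 0.20 (SE, adjusted p = 0.761) in sham and 0.32 ± 0.13 (adjusted p = 0.0723) in injured kidneys. Its level in CPM, the normalised read count scaled to a fixed library total, was 12.7, 11.4 and 14.4 in Ctrl libraries 1, 2 and 3 and 9.97, 17.1 and 15.0 in PT-KO libraries 1, 2 and 4. After I/R it was 15.3 to 20.0003 in Ctrl+I/R libraries 1, 2 and 4 and 21.6 to 22.8 in PT-KO+I/R libraries 2, 3 and 4, so that the knockout lay higher without overlap. A count over the whole gene in the whole tissue includes exons and cells that the deletion leaves in place, so the labels were not checked by it. Why Gfer was not lower was not tested. Xist, the transcript of the inactive X, marked the first 2 Ctrl libraries as female, while Ctrl library 3 and the libraries of the other groups were male. The labelled organ was checked against proximal tubule markers, whose summed level was 14641 to 15123 CPM in Ctrl. These markers cannot tell cortex from whole kidney.

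The start regions of the ligand genes show how differently built these members are. RefSeq start regions were at hand for 7 of the 10 genes. The 250 bases before the start of the ligand genes are printed 5′ to 3′ on the coding strand (build GRCm38.p6). They lie at chr7:25686752-25687001 (plus strand) for Tgfb1, chr1:186705990-186706239 (minus strand) for Tgfb2 and chr13:16011601-16011850 (plus strand) for Inhba. Capitals mark a TATAAA box or the SMAD-binding letters CAGAC.
Tgfb1: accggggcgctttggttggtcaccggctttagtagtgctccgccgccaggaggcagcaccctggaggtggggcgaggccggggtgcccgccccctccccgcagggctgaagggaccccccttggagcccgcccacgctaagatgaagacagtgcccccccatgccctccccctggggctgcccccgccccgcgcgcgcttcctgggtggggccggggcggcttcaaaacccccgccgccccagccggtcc
Tgfb2: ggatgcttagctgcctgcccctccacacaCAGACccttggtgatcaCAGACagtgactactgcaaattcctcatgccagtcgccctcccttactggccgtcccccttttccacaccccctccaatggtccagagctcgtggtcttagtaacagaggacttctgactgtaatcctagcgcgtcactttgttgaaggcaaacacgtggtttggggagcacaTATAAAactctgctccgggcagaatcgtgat
Inhba: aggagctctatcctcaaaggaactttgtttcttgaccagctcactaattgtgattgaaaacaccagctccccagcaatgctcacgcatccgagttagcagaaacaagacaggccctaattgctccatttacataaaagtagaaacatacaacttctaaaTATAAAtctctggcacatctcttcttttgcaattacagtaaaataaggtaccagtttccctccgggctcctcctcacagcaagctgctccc
The window of Tgfb1 holds neither motif, that of Tgfb2 holds a TATAAA box 31 to 26 bases before the start and CAGAC at 2 places, and that of Inhba holds a TATAAA box 91 to 86 bases before the start. Over 32851 mouse start regions of the same length, 12.4% held TATAAA and 42.2% held CAGAC on either strand. Acta2 is known for CArG boxes, the sites of serum response factor, and its start region held 2 matches when 1 departure from A or T was allowed in the middle bases, where 8.59% of all start regions held at least 1 match and that of Tgfbr2 held 1 as well. The 30 bases around each are shown, at chr19:34255438-34255467 and chr19:34255388-34255417 (minus strand), with the box in capitals. They lie before the RefSeq start but inside the GENCODE M21 interval of the gene (chr19:34241090-34255590).
Acta2, box 84 to 75 bases before the start: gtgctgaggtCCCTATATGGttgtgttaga
Acta2, box 34 to 25 bases before the start: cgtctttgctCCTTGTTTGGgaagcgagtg
The motifs were picked after the sequences had been read, and a match describes letters and not a site in use.

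Compared per length of transcript, as TPM, which divides each count by the exon length of its gene before scaling to a fixed total, Acta2 had the highest mean in Ctrl with 44.6 ± 12.1 TPM (SD, n = 3). The receptors had 34.5 ± 4.12 TPM for Tgfbr1 and 27.6 ± 1.68 TPM for Tgfbr2, and Acta2 and Tgfbr1 did not differ beyond their spread. Vim had 20.3 ± 5.36, Pdgfrb 17.4 ± 1.78, Fn1 11.7 ± 3.20 and Smad7 11.4 ± 1.42 TPM, and neither Vim and Pdgfrb nor Fn1 and Smad7 differed beyond their spread. The ligands were lowest, with 4.91 ± 0.992 TPM for Tgfb1, 2.93 ± 1.47 for Tgfb2 and 0.199 ± 0.107 for Inhba. In Ctrl+I/R the order of the means was changed mainly by Vim, at 63.6 ± 17.8 TPM, and Inhba, at 3.20 ± 2.12 TPM. Vim did not differ beyond its spread from Tgfbr1 (51.0 ± 9.06) and Tgfbr2 (49.4 ± 15.5), nor Inhba from Tgfb2 (1.36 ± 0.509). Acta2 stayed highest in that group at 132 ± 28.96 TPM, and in PT-KO+I/R it had 76.3 ± 16.4 TPM against 64.2 ± 8.44 for Tgfbr1, which did not differ beyond their spread. Actins share long stretches of near-identical sequence, so reads of Acta2 can be split with other actin genes in a way that depends on the counting.

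**Figure D1:**
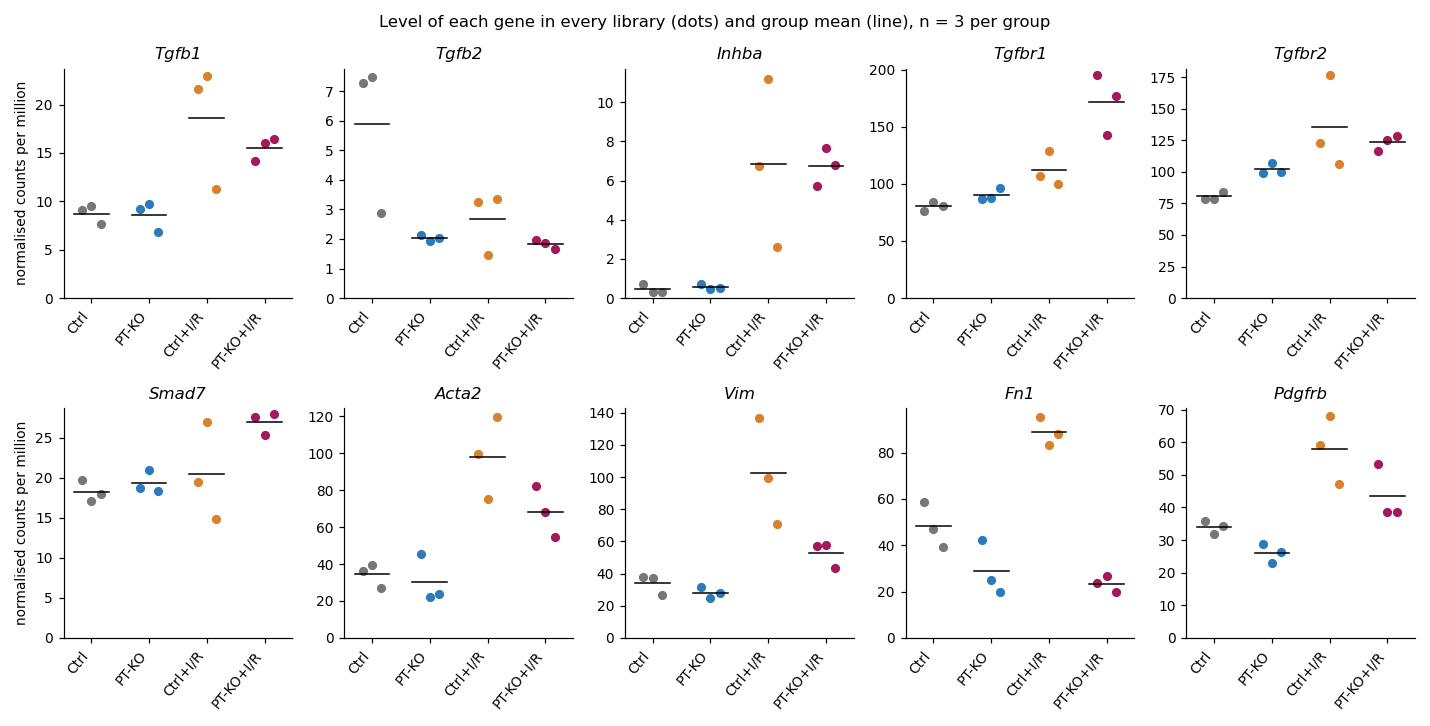
Normalised read counts (CPM, vertical axes, from 0) of the 10 genes in each of the 12 libraries (dots) with the mean of each group (line), in the order Ctrl, PT-KO, Ctrl+I/R and PT-KO+I/R. Fn1 lies between 83.2 and 95.3 in Ctrl+I/R and between 19.7 and 26.6 in PT-KO+I/R, whereas Inhba is high in both I/R groups.

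The member with the largest fold change was Inhba (chr13:16011851-16031621, plus strand), which encodes the activin beta A subunit. Its level was 0.704, 0.306 and 0.333 CPM in Ctrl and 6.74, 11.2 and 2.59 CPM in Ctrl+I/R. In PT-KO it was 0.694, 0.485 and 0.491 CPM and in PT-KO+I/R 5.73, 7.66 and 6.77 CPM. The 6 sham libraries were all below the 6 I/R libraries, and Ctrl+I/R library 4 was the lowest of the latter. The log2 fold change of I/R, from the quasi-likelihood test of edgeR, was 3.90 ± 0.61 (SE, adjusted p = 0.0115) in Ctrl and 3.58 ± 0.27 (adjusted p = 2.22e-06) in PT-KO. The genotypes did not differ after I/R, with a log2 fold change of -0.03 ± 0.43 (adjusted p = 0.966), an interval that leaves room for a change in either direction. With only 5 to 14 counts per library in the sham groups, Inhba did not pass the low-count filter of PT-KO against Ctrl, and it passed that of both I/R comparisons through the injured kidneys, where it was high.

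Tgfb1 (chr7:25687002-25705077, plus strand) is the ligand gene most often linked to renal fibrosis. It had 9.10, 9.48 and 7.65 CPM in Ctrl and 21.6, 22.9 and 11.3 CPM in Ctrl+I/R. In PT-KO it had 9.21, 9.75 and 6.81 CPM and in PT-KO+I/R 14.2, 16.03 and 16.4 CPM. The I/R libraries lay above the sham libraries in each genotype, and Ctrl+I/R library 4 was again the lowest of the injured kidneys. The rise had a log2 fold change of 1.10 ± 0.26 (adjusted p = 0.0314) in Ctrl and 0.85 ± 0.16 (adjusted p = 0.00103) in PT-KO. Between genotypes the I/R groups overlapped, with a log2 fold change of -0.26 ± 0.25 (adjusted p = 0.409). Without Ctrl+I/R library 4 this value was -0.52 and passed the threshold (adjusted p = 0.0188).

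Tgfb2 (chr1:186622792-186705989, minus strand) did not follow the other ligands. Its level was 7.29, 7.46 and 2.88 CPM in Ctrl, and between 1.46 and 3.35 CPM in the other 9 libraries. Only the 2 female Ctrl libraries stood high, and the male Ctrl library 3 lay among the injured kidneys. The log2 fold change was -1.12 ± 0.45 (adjusted p = 0.112) for I/R in Ctrl, -0.16 ± 0.26 (adjusted p = 0.622) for I/R in PT-KO and -1.53 ± 0.37 (adjusted p = 0.187) for PT-KO against Ctrl, none of which passed. With sex as a covariate the value for I/R in Ctrl was -0.10 (adjusted p = 0.889) and that for PT-KO against Ctrl -0.50. Without the male Ctrl library both passed, at -1.43 (adjusted p = 0.0487) and -1.86 (adjusted p = 0.000890), and a fit to all 12 libraries called the value for I/R in Ctrl (-1.13, adjusted p = 0.0353). PT-KO against Ctrl was also called with no low-count filter (-1.53, adjusted p = 0.0233) and by DESeq2 (-1.52, adjusted p = 0.00576). Neither the genotypes after I/R (-0.56 ± 0.36, adjusted p = 0.236) nor the interaction (0.98 ± 0.54, adjusted p = 0.187) passed, but the first did without Ctrl+I/R library 2 (-0.86, adjusted p = 0.0358) and the second without Ctrl library 3 (1.30, adjusted p = 0.0382). Sex and genotype cannot be told apart for this gene beyond that 1 library. An antisense gene, Gm29491, shares 124 exonic bases with Tgfb2 but had at most 3 counts in any library.

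The receptor genes were among the most abundant members. Tgfbr1 (chr4:47353222-47414931, plus strand), the type I receptor kinase, had 76.0, 84.4 and 80.3 CPM in Ctrl, 87.1, 87.7 and 96.3 CPM in PT-KO, 106.6, 129 and 100.2 CPM in Ctrl+I/R and 195, 143 and 177 CPM in PT-KO+I/R. These 4 groups did not overlap one another. Tgfbr1 rose with I/R by a log2 fold change of 0.49 ± 0.12 (adjusted p = 0.0327) in Ctrl and 0.92 ± 0.12 (adjusted p = 7.56e-05) in PT-KO. Among the members it alone was called higher in the injured knockout kidneys than in the injured controls, with a log2 fold change of 0.61 ± 0.15 (adjusted p = 0.0109). That call held without each of the 6 libraries in turn but not with scaling by total counts, where the value was 0.40 (adjusted p = 0.0623) and the median of all genes fell by 0.21 on the log2 scale. The difference between the I/R effects did not pass (0.44 ± 0.18, adjusted p = 0.0774), but did without Ctrl+I/R library 2 (0.55, adjusted p = 0.0267) or PT-KO+I/R library 3 (0.56, adjusted p = 0.0293).

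Tgfbr2 (chr9:116084293-116175360, minus strand), the type II receptor that binds the ligand first, had 78.7, 78.9 and 84.5 CPM in Ctrl and 123, 177 and 106.6 CPM in Ctrl+I/R. In PT-KO it had 99.4, 107 and 99.8 CPM and in PT-KO+I/R 117, 126 and 129 CPM. Here the Ctrl libraries were the lowest and the PT-KO libraries lay above all of them. The log2 fold change of I/R was 0.75 ± 0.18 (adjusted p = 0.0317) in Ctrl and 0.27 ± 0.08 (adjusted p = 0.0135) in PT-KO, and the difference between those effects did not pass (-0.47 ± 0.21, adjusted p = 0.110), but did without Ctrl+I/R library 4 (-0.62, adjusted p = 0.0263). The injured groups of both genotypes overlapped (log2 fold change -0.13 ± 0.17, adjusted p = 0.555).

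Smad7 (chr18:75367529-75395935, plus strand) encodes the inhibitory SMAD that blocks the type I receptor and is itself induced by the pathway. It had 19.8, 17.1 and 18.01 CPM in Ctrl and 19.5, 26.9 and 14.8 CPM in Ctrl+I/R, so that the groups overlapped (log2 fold change 0.17 ± 0.20, adjusted p = 0.586). In PT-KO it had 18.7, 20.95 and 18.3 CPM and in PT-KO+I/R 27.6, 25.4 and 27.98 CPM, which did not overlap (0.47 ± 0.11, adjusted p = 0.00299). Neither the genotypes after I/R (0.39 ± 0.20, adjusted p = 0.134) nor the interaction (0.32 ± 0.24, adjusted p = 0.339) passed. Without Ctrl+I/R library 2 both did, at 0.63 (adjusted p = 0.0120) and 0.56 (adjusted p = 0.0348).

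Fn1 (chr1:71585520-71653200, minus strand) encodes fibronectin, the matrix glycoprotein on which collagen fibrils are laid down. Its level was 58.8, 47.0 and 39.1 CPM in Ctrl and 95.3, 83.2 and 87.9 CPM in Ctrl+I/R. In PT-KO it was 42.2, 24.9 and 20.001 CPM and in PT-KO+I/R 23.5, 26.6 and 19.7 CPM. The Ctrl+I/R libraries stood above all others, and the PT-KO+I/R libraries lay within or below the range of their own sham group. I/R raised Fn1 in Ctrl by a log2 fold change of 0.89 ± 0.16 (adjusted p = 0.0146), and in PT-KO the value was -0.32 ± 0.24 (adjusted p = 0.267). Between the injured groups Fn1 was lower in the knockout by a factor of 0.261 (log2 fold change -1.94 ± 0.13, adjusted p = 0.000130). The interaction of knockout and I/R was -1.19 ± 0.33 (adjusted p = 0.0177). Both calls were kept in every alternative run, with -2.14 to -1.82 over 14 fits for the comparison after I/R and -1.50 to -0.82 over 19 fits for the interaction. Splice forms of fibronectin cannot be told apart in counts per gene, and the antisense gene Apol7d, which shares 292 exonic bases with Fn1, had at most 2 counts in any library.

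Vim (chr2:13573927-13582826, plus strand) encodes vimentin, the intermediate filament of mesenchymal cells that dedifferentiated tubule cells also make. It had 37.6, 37.1 and 26.8 CPM in Ctrl, 31.8, 24.6 and 28.0 CPM in PT-KO, 137, 99.6 and 71.0 CPM in Ctrl+I/R and 57.4, 57.9 and 43.7 CPM in PT-KO+I/R. All injured kidneys were above all sham kidneys, and the PT-KO+I/R libraries lay between the sham and the Ctrl+I/R libraries. Vim rose with I/R in both genotypes, by 1.61 ± 0.25 (adjusted p = 0.0111) in Ctrl and 0.91 ± 0.14 (adjusted p = 0.000222) in PT-KO on the log2 scale. It was lower in injured knockout kidneys than in injured controls, with a log2 fold change of -0.96 ± 0.23 (adjusted p = 0.0112). Without PT-KO+I/R library 4 that value was -0.83 and just missed the threshold (adjusted p = 0.0542). The interaction did not pass (-0.69 ± 0.31, adjusted p = 0.108), but did without Ctrl+I/R library 4 (-0.90, adjusted p = 0.0240).

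Acta2 (chr19:34241090-34255590, minus strand) encodes alpha smooth muscle actin, the defining product of myofibroblasts and of vascular smooth muscle. It had 36.5, 39.5 and 27.3 CPM in Ctrl and 99.6, 75.1 and 119 CPM in Ctrl+I/R, a log2 fold change of 1.52 ± 0.21 (adjusted p = 0.00796). In PT-KO it had 45.2, 22.0 and 24.0 CPM and in PT-KO+I/R 82.2, 67.9 and 54.6 CPM, a log2 fold change of 1.16 ± 0.25 (adjusted p = 0.00247). I/R and sham libraries did not overlap in either genotype. The injured groups overlapped through PT-KO+I/R library 2 and library 2 of Ctrl+I/R, and the log2 fold change of -0.53 ± 0.20 missed the threshold (adjusted p = 0.0604). It passed without either of those libraries, at -0.67 (adjusted p = 0.0457) and -0.70 (adjusted p = 0.0106), with scaling by total counts, at -0.73 (adjusted p = 0.0174), by DESeq2, at -0.53 (adjusted p = 0.0366), and with no low-count filter, at -0.54 (adjusted p = 0.0275).

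Pdgfrb (chr18:61045150-61085061, plus strand) encodes the platelet-derived growth factor receptor of pericytes and fibroblasts. It had 35.9, 31.8 and 34.3 CPM in Ctrl, 28.8, 22.9 and 26.4 CPM in PT-KO, 59.1, 68.1 and 47.1 CPM in Ctrl+I/R and 53.5, 38.6 and 38.8 CPM in PT-KO+I/R. Within each genotype every injured kidney was above every sham kidney. The rise was 0.78 ± 0.14 (adjusted p = 0.0161) in Ctrl and 0.73 ± 0.15 (adjusted p = 0.00141) in PT-KO on the log2 scale, and the interaction was -0.03 ± 0.22 (adjusted p = 0.928). The genotypes did not pass after I/R (-0.42 ± 0.17, adjusted p = 0.0755). They passed with scaling by total counts (-0.63, adjusted p = 0.0235), in a fit to all 12 libraries (-0.42, adjusted p = 0.0386), with sex as a covariate in that fit (-0.42, adjusted p = 0.0442), without Ctrl+I/R library 4 (-0.56, adjusted p = 0.0284) and without PT-KO+I/R library 2 (-0.58, adjusted p = 0.0297).

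Counted together, 8 of the 10 members were called higher in Ctrl+I/R than in Ctrl, where 11.4% of all tested genes were called higher and 19.4% in either direction. The injured and sham libraries of 8 members did not overlap, beside 43.7% of all genes. The members' median log2 fold change was 0.83, beside -0.01 over all genes. The members were chosen with earlier results of these data known, so these contrasts, and those below, are a description and not a test. Smad7 and Tgfb2 were the 2 that were not called. Inhba passed the filter only through the group where it is high, and without it 7 of the other 9 were called. Only Acta2 and Vim were called without each of the 6 libraries in turn, while Tgfb1 and Tgfbr1 were called only without Ctrl+I/R library 4. Inhba was lost without Ctrl library 2 (adjusted p = 0.0568), and Fn1 without Ctrl library 2 (adjusted p = 0.0667) or Ctrl+I/R library 1 (adjusted p = 0.0532). Tgfbr2 was called only without Ctrl+I/R library 2 or library 4. Pdgfrb was not called without Ctrl library 1 or 2 or Ctrl+I/R library 1, where its adjusted p reached 0.0687. With sex as a covariate, under which Ctrl library 3 is the one male sham control, Tgfb1, Inhba, Acta2, Vim and Fn1 remained called.

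In PT-KO+I/R against PT-KO, a comparison with males only, 8 of 10 members were called, all higher, where 32.9% of all genes were called higher and 65.5% in either direction. The groups did not overlap for 8 members and for 70.8% of all genes. The members' median log2 fold change was 0.79, beside 0.01 over all genes. The exceptions were Fn1 and Tgfb2, and here too Inhba passed the filter through the injured group. With at least 10 counts required in every library, which leaves Inhba out, 7 members were called. Tgfbr2 was lost without PT-KO library 1 (adjusted p = 0.0522) or library 4 (adjusted p = 0.0553), and also in a fit to all 12 libraries (0.28, adjusted p = 0.124) and with sex as a covariate in that fit (0.28, adjusted p = 0.129). The other 7 calls held without each library.

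**Figure D2:**
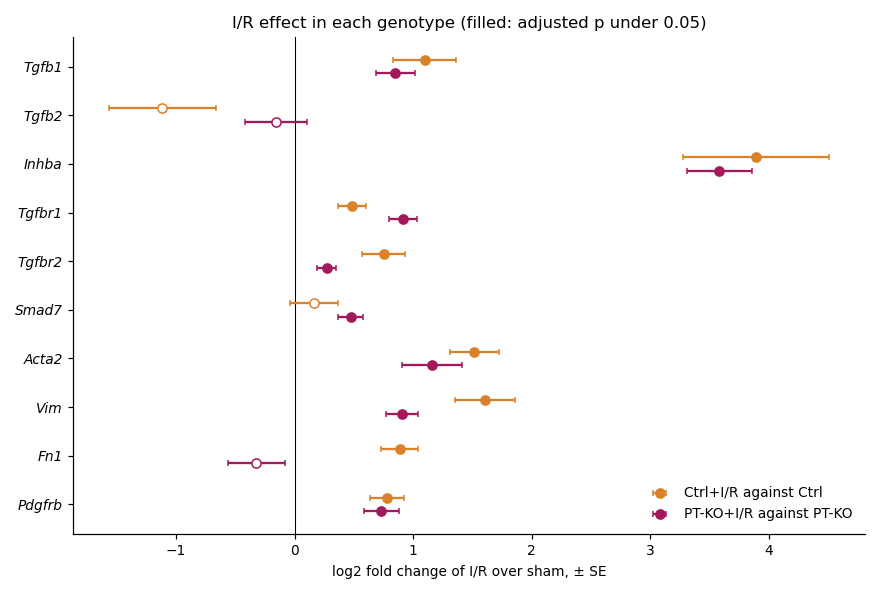
Log2 fold change of I/R over sham with its standard error (horizontal axis) for each gene, in Ctrl and in PT-KO (3 against 3 libraries each). Filled dots have an adjusted p under 0.05, and Fn1 is filled at 0.89 in Ctrl and open at -0.32 in PT-KO.

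Without injury no member was called between PT-KO and Ctrl among the 9 that were tested by edgeR, and 0% of all genes were. An unadjusted p under 0.05 was found for 4 members, Tgfb2, Tgfbr2, Fn1 and Pdgfrb, and for 16.8% of all genes, and DESeq2 called 2 members, Tgfb2 and Tgfbr2, among 458 genes in all. The groups did not overlap for 4 members, Tgfb2, Tgfbr1, Tgfbr2 and Pdgfrb, and for 21% of all genes. Fn1 had a log2 fold change of -0.74 ± 0.27 (adjusted p = 0.252) and Pdgfrb of -0.39 ± 0.11 (adjusted p = 0.207). All other members lay between -0.27 for Vim and 0.17 for Tgfbr1, apart from Tgfbr2 at 0.34 ± 0.07 (adjusted p = 0.183, but 0.0174 without Ctrl library 3) and Tgfb2, given above.

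After injury 3 of 10 members were called between the genotypes, with Tgfbr1 higher and Vim and Fn1 lower, beside 46.9% of all genes. The injured groups did not overlap for the same 3 members and for 58.7% of all genes. By total counts 0 members were higher and 4 lower (Acta2, Vim, Fn1 and Pdgfrb), beside 12.9% of all genes higher and 33.2% lower in place of 22.5% and 24.4%. For the difference between the I/R effects of the genotypes, 1 of 10 members was called, Fn1, with a lower value, beside 30.6% of all genes in either direction and 16.4% with a lower value. The exact permutation test of a single gene in 3 against 3 libraries cannot go below p = 0.1 and gave that value for Fn1, Vim and Tgfbr1.

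**Figure D3:**
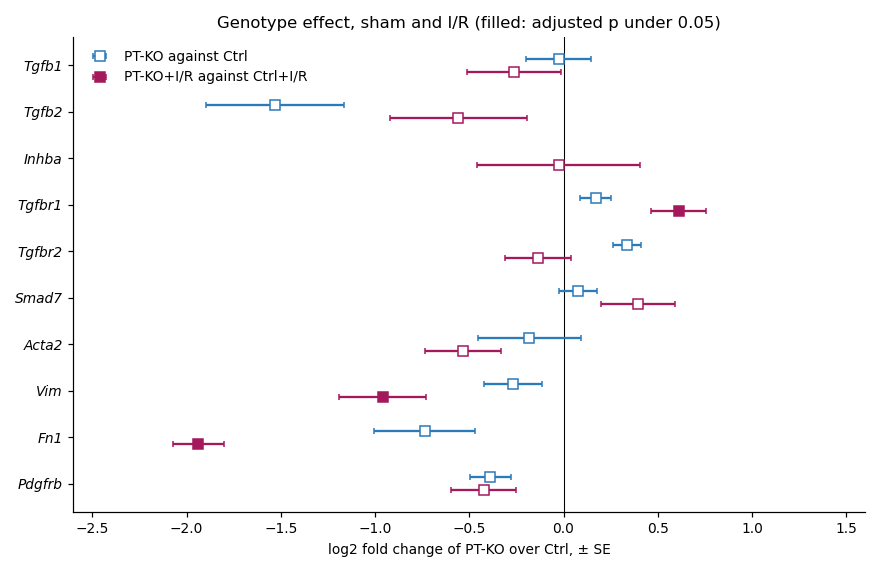
Log2 fold change of PT-KO over Ctrl with its standard error (horizontal axis) for each gene, in sham and in I/R kidneys (3 against 3 libraries each; Inhba was tested only after I/R). The 3 filled squares, for Tgfbr1 at 0.61, Vim at -0.96 and Fn1 at -1.94, have an adjusted p under 0.05.

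The rest of the pathway was read from 10 lists of 110 genes, of which 102 were tested after I/R. Between the injured groups 36 were higher in PT-KO+I/R and 30 lower, with a median log2 fold change of 0.12, beside 22.5% of all genes higher and 24.4% lower, against which the counts of each list are read too. By total counts 19 were higher and 34 lower, without Ctrl+I/R library 1 the count was 20 and 23, and without PT-KO+I/R library 4 it was 20 and 21. The lists went different ways. Of 6 signal-carrying SMAD genes, 4 were higher and 0 lower. Smad3, the SMAD that carries the TGF-beta signal to matrix genes, went from 59.2 ± 14.7 to 140 ± 19.3 CPM (SD, n = 3; log2 fold change 1.24 ± 0.18, adjusted p = 0.00145). Smad1, of the BMP branch, had a log2 fold change of 1.35 ± 0.17 (adjusted p = 0.000776) and the shared partner Smad4 of 0.76 ± 0.10 (adjusted p = 0.00100). These 3 calls held without each library and by total counts.

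Brakes on the pathway were also mostly higher, 8 of 14, with 1 lower and a median of 0.57. They were led by Tgif1, a SMAD corepressor, at 1.63 ± 0.44 (adjusted p = 0.0175), Fstl3, a secreted activin trap, at 0.92 ± 0.17 (adjusted p = 0.00347), and Pmepa1, which sequesters SMADs, at 0.83 ± 0.21 (adjusted p = 0.0134). Fst, which encodes the activin trap follistatin, was lower (-1.29 ± 0.24, adjusted p = 0.00381) and went from 10.3 ± 3.03 to 4.23 ± 0.257 CPM. Tgif1 was not called without Ctrl+I/R library 1 or PT-KO+I/R library 4, nor Pmepa1 without Ctrl+I/R library 1 or by total counts. By total counts 5 of the 14 brakes were higher and 2 lower, and without Ctrl+I/R library 1 the count was 5 and 1. The interaction was higher for 8 of them and lower for 0, beside 14.3% of all genes higher, but for 4 and 1 by total counts for 3 and 0 with sex as a covariate, and for 5 without Ctrl library 1, Ctrl library 2, PT-KO library 2, Ctrl+I/R library 1 or PT-KO+I/R library 4.

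Among 18 TGF-beta target genes 5 were higher and 7 lower after I/R in PT-KO against Ctrl, with a median of 0.01, and the split was the same by total counts. Without PT-KO+I/R library 4 it was 3 higher and 6 lower. Among the higher were Sphk1, a sphingosine kinase, at 3.60 ± 0.26 (adjusted p = 0.000154), and Ccn2, which encodes connective tissue growth factor, at 1.93 ± 0.23 (adjusted p = 0.000698). Sphk1 went from 9.84 ± 3.71 to 120 ± 18.5 CPM and Ccn2 from 113 ± 37.2 to 432 ± 65.5 CPM. The genes of the fibrillar collagens were lower. Col1a1 went from 126 ± 17.5 to 11.5 ± 5.56 CPM (log2 fold change -3.47 ± 0.32, adjusted p = 0.000295), Col1a2 from 158 ± 12.2 to 27.6 ± 14.8 CPM (-2.53 ± 0.32, adjusted p = 0.000838) and Col3a1 from 263 ± 52.3 to 60.0 ± 15.7 CPM (-2.14 ± 0.22, adjusted p = 0.000378). The collagen calls and those of Sphk1 and Ccn2 held without each library. In Ctrl 12 of these 18 genes rose with I/R and 0 fell, with a median of 1.41, beside 11.4% of all genes called higher in that comparison, and between 6 and 13 rose when 1 library was left out, with 7 without Ctrl library 1 and 6 without Ctrl library 2. Among them was Tnc, which encodes tenascin-C (3.31 ± 0.36, adjusted p = 0.00404) and was called without each library.

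**Figure D4:**
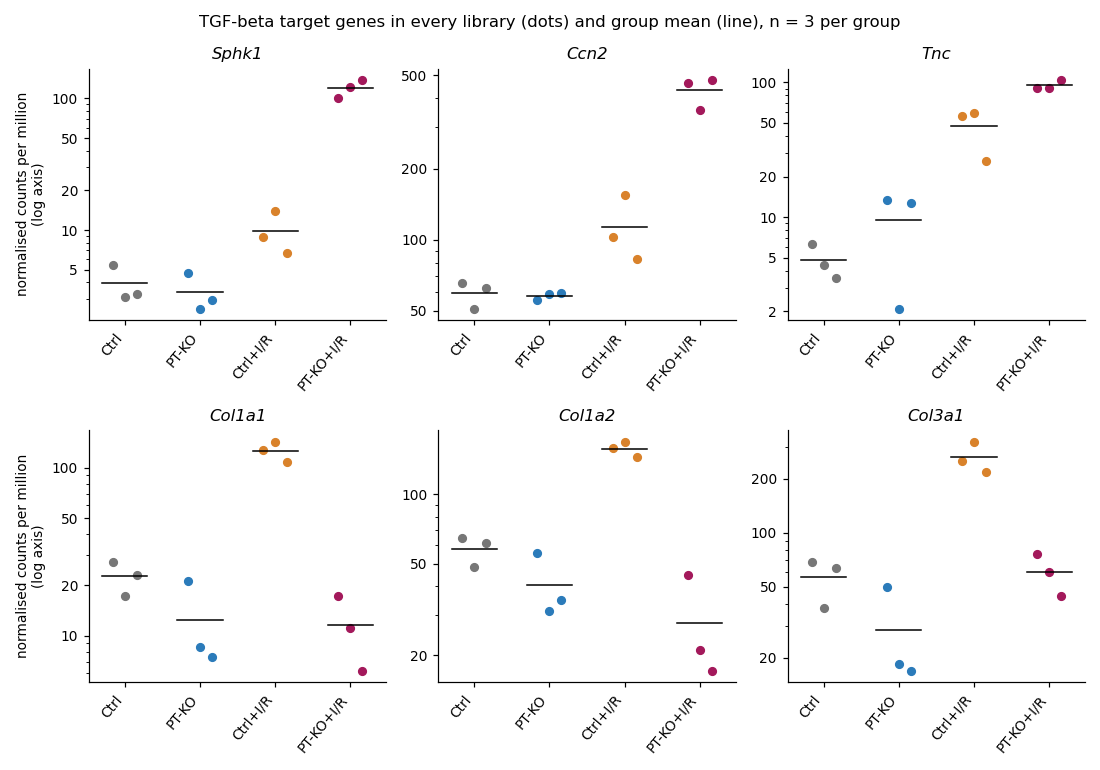
Normalised read counts (CPM, log vertical axes) of 6 TGF-beta target genes in each library (dots) with group means (lines). The means of Sphk1, Ccn2 and Tnc are highest in PT-KO+I/R, while Col1a1, Col1a2 and Col3a1 are highest in Ctrl+I/R.

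Contractile and myofibroblast genes other than Acta2 were lower for 5 and higher for 0 of the 10 tested, and lower for 7 with sex as a covariate. Only 2 were lower without Ctrl+I/R library 1, PT-KO+I/R library 3 or PT-KO+I/R library 4, and 3 were lower and 1 higher without PT-KO+I/R library 2. Thy1, a surface glycoprotein of fibroblasts and lymphocytes, was lower by the most in PT-KO+I/R (-2.86 ± 0.57, adjusted p = 0.00512). It had 146, 121 and 32 counts in Ctrl+I/R libraries 1, 2 and 4. In PT-KO+I/R libraries 2, 3 and 4 it had only 9, 22 and 4 counts, so it passed the low-count filter through Ctrl+I/R, where it was high. Myh11, the smooth muscle myosin heavy chain, had -0.81 ± 0.25 (adjusted p = 0.0279) and Meox1, a transcription factor gene, -0.70 ± 0.22 (adjusted p = 0.0299), and both were called without 1 of the 6 libraries only, Ctrl+I/R library 2. Tagln, which encodes transgelin, rose with I/R in Ctrl by 2.12 ± 0.17 (adjusted p = 0.00231) and had 97.4 ± 16.6 CPM in Ctrl+I/R beside 104 ± 35.1 CPM in PT-KO+I/R. Tpm2, a tropomyosin gene, rose in Ctrl by 1.27 ± 0.20 (adjusted p = 0.0118). Both were called without each library.

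The integrins that bind fibronectin parted too. Itga5 was higher (0.87 ± 0.25, adjusted p = 0.0229), and so was Itgb1, the shared beta chain (0.57 ± 0.16, adjusted p = 0.0177). Lower were Itga4 (-2.22 ± 0.39, adjusted p = 0.00306), Itga8 (-1.22 ± 0.19, adjusted p = 0.00192) and Npnt (-1.04 ± 0.24, adjusted p = 0.00915), which encodes nephronectin, a ligand of integrin alpha 8. The 3 lower calls held without each library and by total counts. Neither higher call held by total counts, and both were lost without Ctrl+I/R library 1 or PT-KO+I/R library 3 or 4.

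Of 4 further ligand genes, Inhbb, the activin beta B subunit, was higher at 1.34 ± 0.34 (adjusted p = 0.0147) and went from 9.33 ± 4.71 to 23.8 ± 2.37 CPM, a call that was lost without PT-KO+I/R library 4. Gdf11, whose product shares the activin receptors, was lower at -1.80 ± 0.23 (adjusted p = 0.000883) and held without each library. Genes of the latent complex and its activation were higher for 5 and lower for 7 of 15, among the latter Fbn1, which encodes fibrillin-1 (-1.38 ± 0.14, adjusted p = 0.000417), and Nrros, a carrier of latent TGF-beta in myeloid cells (-1.22 ± 0.22, adjusted p = 0.00368). By total counts 0 were higher and 8 lower. Without Ctrl+I/R library 1 the count was 1 and 5, without Ctrl+I/R library 4 or PT-KO+I/R library 2 it was 3 and 5, without PT-KO+I/R library 3 it was 2 and 5, and without PT-KO+I/R library 4 it was 2 and 4. The higher genes included Itgb3, an integrin chain that releases latent TGF-beta, at 0.78 ± 0.27 (adjusted p = 0.0428), a call that held only without Ctrl+I/R library 2. Receptor genes were higher for 4 and lower for 1 of 10, by total counts 1 and 1. Without PT-KO+I/R library 4 they stood at 2 and 0, and without Ctrl+I/R library 1 or PT-KO+I/R library 3 at 3 and 0. Of 4 PDGF ligand genes and the receptor gene Pdgfra, 1 was higher and 2 lower, by total counts 0 and 2, and the higher call, of Pdgfa, held only without Ctrl+I/R library 2. The lower ones were Pdgfd (-0.69 ± 0.14, adjusted p = 0.00590) and Pdgfc (-0.60 ± 0.13, adjusted p = 0.00697). BMP genes were higher for 6 and lower for 3 of 14, with the antagonist Nbl1 at 2.02 ± 0.16 (adjusted p = 0.000201) and the antagonist Sostdc1 at -3.61 ± 0.57 (adjusted p = 0.00201). By total counts the BMP genes stood at 4 higher and 4 lower, and without Ctrl+I/R library 1 at 3 and 3.

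**Figure D5:**
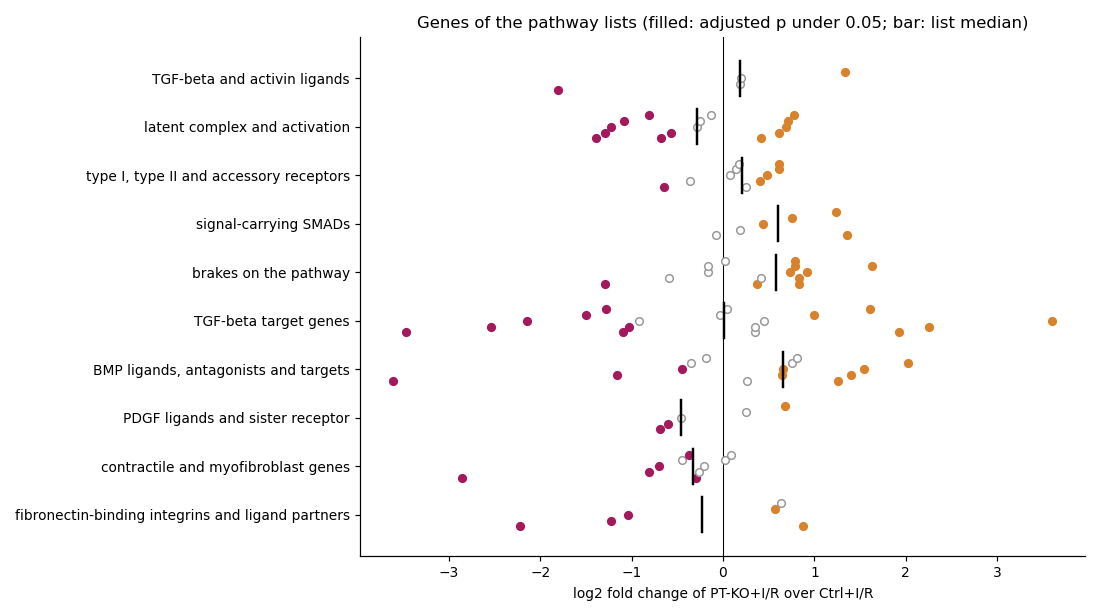
Log2 fold change of the knockout over the control after I/R (horizontal axis) for each tested gene of the 10 lists (rows), with the list median as a bar. Filled dots have an adjusted p under 0.05, and the target genes reach from -3.47 for Col1a1 to 3.60 for Sphk1.

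In bulk tissue fewer cells of a type and less RNA per cell cannot be told apart. The summed level of 8 fibroblast markers was 521 to 680 CPM in Ctrl+I/R and 116 to 216 CPM in PT-KO+I/R, but 5 of them are also in the lists above and the collagens carry most of the sum. In all 4 were lower and 0 higher. Pdgfra (28.6 and 34.4 CPM) and Dcn (20.2 and 20.8 CPM) did not pass the test (log2 fold change 0.25, adjusted p = 0.448, and 0.02, adjusted p = 0.962), and neither did Lum (-1.21 ± 0.52, adjusted p = 0.0871), while Dpt was lower (-1.10 ± 0.31, adjusted p = 0.0210). The sum of Lum, Dpt and Mfap5 was 3.50 to 5.90 CPM in Ctrl+I/R and 2.05 to 3.85 CPM in PT-KO+I/R.

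Macrophages also make fibronectin and vimentin. The 8 macrophage markers summed to 111 to 191 CPM in Ctrl+I/R and to 59.7 to 68.0 CPM in PT-KO+I/R, and 6 were lower and 1, Cd68, higher. Adgre1 (F4/80) went from 7.98 to 0.384 CPM and Ccr2 from 21.03 to 1.65 CPM. Lymphocyte markers summed to 5.88 to 14.5 and 0.428 to 0.967 CPM. Pericyte and smooth muscle markers summed to 166 to 213 and 137 to 151 CPM, with 4 of 9 lower, among them Cspg4 (-1.69 ± 0.17, adjusted p = 0.000412) and Rgs5 (-0.72 ± 0.17, adjusted p = 0.00976). Mcam (0.37, adjusted p = 0.0870) and Kcnj8 (0.43, adjusted p = 0.177) lay above 0 and did not pass. Myh11, Cnn1 and Des are also in the contractile list, and the other 6 markers summed to 135 to 164 and 109 to 126 CPM. The part of macrophages, lymphocytes, pericytes and smooth muscle in the lower Fn1 and Vim was not tested. Proximal tubule markers summed to 3501 to 8691 CPM in Ctrl+I/R and 2446 to 3171 CPM in PT-KO+I/R, with 4 of 8 lower. Thick ascending limb markers summed to 1417 to 3780 and 1927 to 2370 CPM, with 3 of 4 lower, and collecting duct and inner medulla markers to 136 to 305 and 86.4 to 143 CPM, with 3 of 6 lower. Endothelial markers summed to 393 to 445 and 478 to 510 CPM, with 4 of 8 higher and 2 lower. Fat markers summed to 0.804 to 1.10 and 6.93 to 10.9 CPM, and the 1 tested was higher. The part of these lists was not tested either.

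Profiles most like each member over the 12 libraries were ranked by the root mean square difference of centred log2 CPM among 16138 genes. Nearest to Fn1 were Iqgap3 (0.256), Cenpn (0.289) and Dck (0.291), whose levels were likewise highest in Ctrl+I/R and lowest in PT-KO+I/R, as with Iqgap3 at 5.05 and 0.663 CPM. For comparison, the profile of Fn1 itself spread by 0.796 around its mean. Nearest to Vim were Lmnb1 (0.228), Sla (0.244) and Ckap4 (0.259), and nearest to Inhba were Osmr (0.270) and Tubb2b (0.281). Acta2 lay farther from its neighbours than any other member, with Fkbp10 at 0.317, Tedc1 at 0.325 and Nexn at 0.329. Nearest to Tgfb1 were Nop56 (0.191), Plekho2 (0.199) and Pik3r1 (0.203), and nearest to Pdgfrb were Gpx7 (0.154), Ostc (0.159) and Myadm (0.163). The receptors and Smad7, which varied less, had closer neighbours, led by Utp18 (0.0881) for Tgfbr1, Rangap1 (0.0864) for Tgfbr2 and Dtwd1 (0.0944) for Smad7. Tgfb2 stood nearest to Apoe (0.244), which had 306 CPM in Ctrl and 99.6 to 149 CPM on average in the other groups. The values share libraries and scaling and are given as a description.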

How the data were processed

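RNA of 12 kidney cortices was sequenced on an Illumina instrument. According to the labels reads were aligned with HISAT2 2.0.4 to mm10. The counting program, its annotation and its use of strand are not given in the sources used here, and the labels name both an RNeasy kit and TRIzol. The authors deposited raw counts per gene, neither normalised nor filtered, for 55487 Ensembl genes, of which 55141 have a symbol in GENCODE M21. One control column, called Ctrl library 3 here, matches no sample title by number and takes only its group from its name. This library is the only male sham control, on which comparisons with Ctrl rest when sex is a covariate.

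Low counts were removed with filterByExpr and libraries scaled by TMM. Each comparison was fitted to its own 6 libraries, and the interaction to all 12, with edgeR 4.0.16 in R 4.3.3 (glmQLFit and glmQLFTest). A gene counted as called when its p, adjusted by the method of Benjamini and Hochberg over the tested genes, was below 0.05. SE values come from the F statistic. CPM values use TMM factors over all 12 libraries, log2 CPM a pseudocount of 0.5, and TPM values the exon length of GENCODE M21. The tests were tried on simulated data first. Alternatives were DESeq2 1.42.0, other scalings and filters, a fit to all 12 libraries, sex as a covariate, replicate number as a block and leaving out each library.

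The members, lists and tests were chosen with earlier results of these data known. The text names all members, the most changed list genes (up to 3 per direction after I/R between genotypes, up to 2 for I/R in Ctrl), single cell type markers picked after their values were seen, and the 3 nearest profiles, except for some genes that are not reported here. Nothing says that same-numbered mice were related: residuals of 12 same-numbered pairs had a median correlation of -0.026. Depth was at least 12165089 counts, with 3 mice per group. How much of the spread came from counting error was not measured, and Inhba and Tgfb2 had the lowest counts of the members.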

Additional observations from a re-analysis of the deposited data

Results flagged for a closer look

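The I/R effect on Fn1 differed between the genotypes. The log2 fold change of I/R in PT-KO minus that in Ctrl was -1.19 (SE 0.33, adjusted p = 0.0177 by the interaction test of edgeR over all 12 libraries), with Fn1 higher after I/R in 3 of 3 Ctrl+I/R libraries and PT-KO+I/R libraries that overlapped their sham group. No other member had a difference between the genotypes that passed this test.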

How the results depend on the processing

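Both calls of Fn1 (lower in the injured knockout, and the interaction) and the rise of Inhba, Acta2, Vim, Tgfb1, Tgfbr1, Smad7 and Pdgfrb in PT-KO+I/R over PT-KO kept their direction and their side of the threshold in every alternative that could be fitted. Inhba passed the filter only through the injured group, and with at least 10 counts required in every library it was not tested. For I/R in Ctrl the members called, 8 by the main test, were 5 with sex as a covariate and 9 in a fit to all 12 libraries, and all genes called, 3019 by the main test, were 2029 and 4938. Between PT-KO and Ctrl the members called were 0 by the main test, 1 with no low-count filter and 2 by DESeq2, and all genes called were 1 by total counts, 388 with no filter and 458 by DESeq2. The interaction called 3233 genes with sex as a covariate. The cause of these moves was not tested, apart from the covariate, which by its construction leaves Ctrl library 3 as the only male sham control.

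Replicate numbers did not pair the samples, with same-numbered residual correlations between -0.215 and 0.235 and 1 of 12 over 0.1. With the replicate number as a block, 2 members and 1378 genes were called between PT-KO and Ctrl. The members were Tgfb2 (-1.86, adjusted p = 0.00471) and Fn1 (-0.70, adjusted p = 0.0182). For I/R in Ctrl the block also called Tgfb2 (-1.69, adjusted p = 0.0309). Between the injured groups it called 1 member, Fn1, and 1683 genes, with Tgfbr1 at 0.71 (adjusted p = 0.0832) and Vim at -0.75 (adjusted p = 0.0589). It called 3215 genes for the interaction, and Tgfbr2 was not called for I/R in PT-KO (0.24, adjusted p = 0.108).

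Leaving out 1 library gave 2 to 8 members and 379 to 4061 genes for I/R in Ctrl, 0 to 2 and 0 to 1930 for PT-KO against Ctrl, 2 to 6 and 4918 to 7509 between the injured groups, 7 to 8 and 9111 to 10262 for I/R in PT-KO, and 1 to 3 and 3622 to 5509 for the interaction.

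Members whose direction turned were not called under either setting. Between PT-KO and Ctrl, Tgfb1 turned with the block (0.024) and with sex as a covariate (0.17), and with 1 library left out it ran from -0.12 to 0.11. With the covariate Acta2 was 0.16 and Vim 0.0685, Smad7 was -0.0494 by total counts, and Acta2 ran from -0.58 to 0.0118 with 1 library left out. Between the injured groups, Inhba was 0.17 with the block and ran from -0.41 to 0.49 with 1 library left out, and Tgfbr2 from -0.28 to 0.0917. For I/R, Smad7 ran from -0.0643 to 0.35 in Ctrl and Fn1 from -0.53 to 0.0434 in PT-KO. In the interaction Tgfb2 was -0.0482 with the covariate and Pdgfrb 0.0027 with the block, and with 1 library left out Inhba ran from -0.81 to 0.225, Acta2 from -0.53 to 0.0576 and Pdgfrb from -0.20 to 0.0858.

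Counts were low for Inhba in the sham groups, where a library held 5 to 14 counts, and for Tgfb2, which had 23 to 73 counts in every library but Ctrl 1 and 2.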

Other observations

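Within the PT-KO sham group Acta2 and Fn1 were uneven. PT-KO library 1 had 45.2 CPM of Acta2 and 42.2 CPM of Fn1, beside 22.0 and 24.9 CPM in library 2 and 24.0 and 20.001 CPM in library 4. The summed fibroblast markers in the same libraries were 183, 103 and 119 CPM. Without PT-KO library 1 the log2 fold change of Fn1 for I/R in PT-KO was 0.04 (adjusted p = 0.836), beside -0.32 with it.

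Neutrophil markers summed to 9.49 to 41.6 CPM in Ctrl+I/R and 54.8 to 82.9 CPM in PT-KO+I/R, so that of the injured groups the one with the lower Fn1 had the higher sum. Injured tubule markers summed to 10588 to 27290 and 23230 to 25302 CPM, which overlapped, with 4 of 7 higher and 1 lower in the injured knockout and a median log2 fold change of 1.53. Their part in the results was not tested.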
